A study of Mus musculus with 2 samples.

Results

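Marker-positive barcodes are described here, from mouse dermal cells sorted for a reporter of the fibroblast lineage. These barcodes carried at least 2 unique molecular identifiers (UMIs, each standing for 1 captured transcript) summed over Pi16, Dpp4, Anxa3, Sema3c and Ly6c1. These 5 genes mark a fibroblast population of the fascia, the loose layer under the dermis. Not all of them are particular to it, as Ly6c1 is also an endothelial gene and Anxa3 an epithelial and myeloid gene. Only barcodes with 200 to 5000 detected genes and at most 10% mitochondrial UMIs were considered. Of 2344 such barcodes, 720 met the marker rule.

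The cells came from the dermis of 8-week-old C57BL/6 mice of genotype PdgfraDreER-tdTomato, in which a recombinase driven by Pdgfra, a gene of the whole fibroblast lineage, switches on a red reporter after tamoxifen. Both groups carried these alleles. UT skin was untreated and IMQ skin received imiquimod, a Toll-like receptor agonist that brings on psoriasis-like inflammation, for 7 days. Live CD45-tdTomato+ cells were sorted, and each group was 1 library, so no p-value can be given and every interval is a 95% interval of counting error only, without variation between mice.

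Fascial fibroblasts that express Pi16 and Dpp4 are known from several mouse tissues as progenitor-like cells of the loose connective tissue around organs and vessels. They are known to carry surface proteins such as Ly6a and Cd34 and to secrete matrix proteins. Pi16 encodes a secreted protease inhibitor-like protein, Dpp4 a cell-surface peptidase, Anxa3 a calcium-dependent phospholipid-binding protein, Sema3c a secreted guidance factor and Ly6c1 a GPI-anchored surface protein.

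In UT, 499 of 1301 barcodes were marker-positive, which is 38.4% (exact binomial interval 35.7 to 41.1). In IMQ the number was 221 of 1043, which is 21.2% (18.7 to 23.8). A deeper barcode has more chances of 2 marker UMIs, and the marker-positive barcodes were deeper, with a median of 1043 UMIs against 613 in the other UT barcodes and 781 against 669.5 in IMQ. After each barcode was thinned to 400 UMIs, 219 of 1205 UT barcodes (18.2%, 16 to 20.5) and 106 of 993 IMQ barcodes (10.7%, 8.82 to 12.8) met the rule. The IMQ share was lower at both depths. Among barcodes with at least 500 genes, however, the shares were 66.7% (61.4 to 71.6) of 345 UT barcodes and 63.6% (49.6 to 76.2) of 55 IMQ barcodes, and the intervals overlapped. With 1 library a group, treatment and library cannot be told apart, nor can treatment and the Cell Ranger version, which was 3.0.0 for UT and 3.1.0 for IMQ. Of the barcodes outside the gene and mitochondrial limits, 20 of 114 in UT and 217 of 4004 in IMQ had 2 or more marker UMIs. Just inside the threshold, at a marker sum of 2, lay 186 UT and 114 IMQ barcodes, and just outside it, at 1, lay 299 and 313. The IMQ matrix holds fewer barcodes in all than the methods of the study count as IMQ cells in its clustering, so whether the study used the same matrix is not known. The libraries shared 1 barcode sequence, and 0 passed the limits in both.

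The RNA content of the libraries differed. Gm42418 and AY036118, which overlap ribosomal RNA sequence, held 1.44% of the UMIs of marker-positive barcodes in UT and 12.9% in IMQ. Within IMQ their share was 16.1% in the other barcodes. These shares move with each difference between the libraries given below, and their part in it was not tested.

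The label of a Pi16 lineage was then set against the 5 genes themselves, whose values chose the barcodes and are given as a description. Ly6c1 supplied 1129 of the marker UMIs in UT (50.8%) and 523 in IMQ (76.1%). It had a UMI in 86.4% of the marker-positive barcodes of UT and in 91.0% of those of IMQ, but also in 27.3% and 29.7% of the other barcodes. Pi16 was seen in 219 of the 499 UT barcodes (43.9%) and in 56 of the 221 IMQ barcodes (25.3%), against 4.74% of the others in either library. Dpp4 was seen in 13.4% and 8.60%, Anxa3 in 19.8% and 11.8%, and Sema3c in 7.21% and 4.98%, in UT and IMQ.

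**Figure D1:**
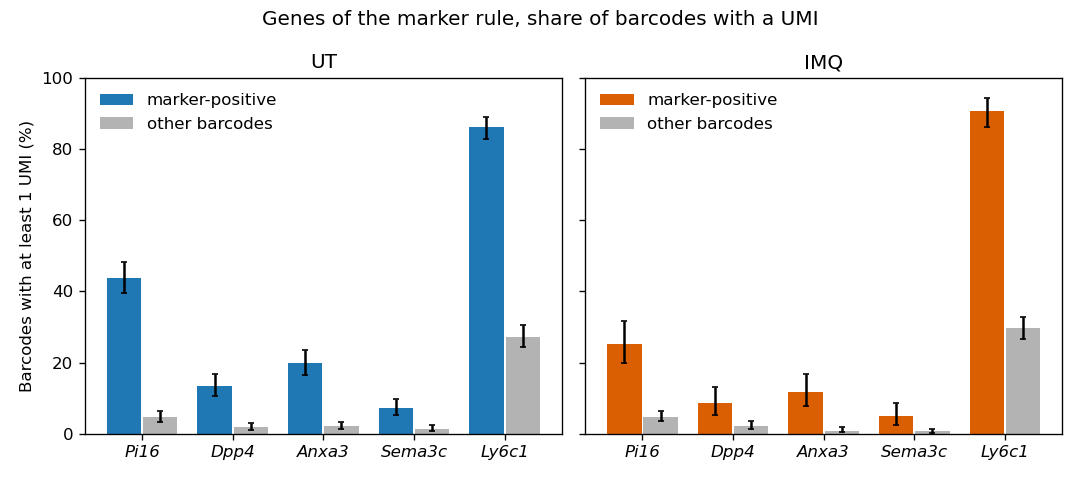
Share of barcodes (y axis, percent) with at least 1 UMI of each gene of the marker rule (x axis), for marker-positive barcodes (coloured bars) and other barcodes (grey bars) of UT (left) and IMQ (right). Error bars are exact binomial 95% intervals. Ly6c1 reaches 86.4% in UT and 91.0% in IMQ, and Pi16 43.9% and 25.3%.

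Ly6c1 alone brought in 179 of the UT barcodes (35.9%) and 124 of the IMQ barcodes (56.1%). At least 2 different marker genes were present in 272 UT barcodes (54.5%) and in 82 IMQ barcodes (37.1%), and no barcode held all 5. Pi16 itself was thus detected in fewer than 1 in 3 of the IMQ barcodes. At their median of 781 UMIs, a missing UMI does not show that Pi16 was absent. The name of a Pi16 lineage can be checked by Pi16 in only part of the barcodes, so they are called by their rule. Ly6c1 (GENCODE M21 on GRCm38, chromosome 15, 75044018 to 75048830, minus strand) has a close paralogue, Ly6c2. Of 351 windows of 50 bases in the last 400 bases of the Ly6c1 transcript, 82 (23.4%) also occur in Ly6c2, so reads from those windows cannot be told apart between the paralogues. Pi16 lies on chromosome 17 at 29317680 to 29330593, plus strand.

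One marker at a time was left out of the sum to see whether it was higher in barcodes chosen on the other 4. These barcodes were chosen by their UMIs of those 4 genes alone. Each was paired with the barcode of nearest depth among the rest. The rest included marker-positive barcodes that met the full rule only through the left-out gene, which raises its count in the partners. For Pi16 in UT the partners held 243 UMIs, against 38 in all 802 UT barcodes outside the full rule. Anxa3, left out, had 93 UMIs in 398 UT barcodes and 26 in their partners, a log2 ratio of 1.76 (1.12 to 2.44). Pi16 had 420 against 243 UMIs in UT, a log2 ratio of 0.71 (0.48 to 0.95). In IMQ Pi16 had 45 against 27, a log2 ratio of 0.72 (0.01 to 1.47). Ly6c1 had a log2 ratio of 0.40 (0.15 to 0.65) in UT and 0.57 (-0.05 to 1.21) in IMQ. The intervals of Dpp4 and Sema3c in UT, and of Dpp4, Anxa3, Sema3c and Ly6c1 in IMQ, included 0.

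All other genes were compared between marker-positive barcodes and 1 other barcode each of nearest depth, within 10%. A partner was found for 402 UT barcodes and 218 IMQ barcodes. The 97 UT barcodes without a partner were the deep ones, with a median of 1815 UMIs, and are not in this comparison. The 3 IMQ barcodes without a partner had a median of 10782 UMIs and are not in it either. In IMQ the paired barcodes held 204022 of the 231754 UMIs outside the rule genes. Unpaired barcodes are kept where IMQ is compared with UT below. A gene was called when its summed level, scaled to the set's total UMIs as CPM, differed by more than 2-fold, with at least 10 UMIs in both sets together. By this rule 507 of 6294 genes (8.06%) were higher in the marker-positive barcodes of UT and 560 (8.9%) were lower. In IMQ 347 of 2982 genes (11.6%) were higher and 202 (6.77%) lower. Without the single barcode that held most UMIs of a gene, 288 of the 507 and 177 of the 347 higher calls stayed past 2-fold. The 560 lower calls of UT became 331 when barcodes with at least 10 Malat1 UMIs, 16 marker-positive and 19 other ones, were left out. Of the 2918 genes measured in both libraries, 30 were higher in both and 19 lower in both, while 8 were higher in UT and lower in IMQ and 15 lower in UT and higher in IMQ. Nothing is read from this overlap.

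Genes of fascial and universal fibroblasts outside the rule were higher in UT. Of the 23 genes of this list 20 were measured in UT, 5 of them (25%, against 8.06% of all measured genes) were more than 2-fold higher and 0 more than 2-fold lower, and 15 had intervals above 0, with a median log2 ratio of 0.65 against 0.0094 over all measured genes. In IMQ 17 were measured, 3 of them (17.6%, against 11.6% of all genes) were more than 2-fold higher and 4 had intervals above 0, with a median of 0.44 against 0.14 over all genes. The sum over the list had a log2 ratio of 0.64 (0.59 to 0.70) in UT and 0.35 (0.26 to 0.44) in IMQ. With the marker rule applied after thinning to 400 UMIs these became 0.56 (0.49 to 0.63) and 0.14 (0.01 to 0.28), and the IMQ value was 0.20 with TMM scaling, so in IMQ the list stood little above the median gene under those settings. The difference in UT was as large for genes of the reticular and lower dermis, whose sum had a log2 ratio of 0.66 (0.59 to 0.73) in UT and 0.15 (0.04 to 0.26) in IMQ. In UT barcodes with a UMI of Pi16 it had 0.96 (0.87 to 1.04). Of 7 such genes measured in UT, 2 were more than 2-fold higher, the chemokine gene Cxcl12 and Cilp, and 1 was lower, Fmo1, all named after their values were seen.

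Gpx3, a secreted glutathione peroxidase, had 853 UMIs in UT marker-positive barcodes and 246 in their partners, a log2 ratio of 1.71 (1.5 to 1.92). In IMQ it had 306 and 183 UMIs, a log2 ratio of 0.73 (0.46 to 1.00). Ly6a, the Sca-1 surface antigen, had log2 ratios of 0.82 (0.65 to 0.99) in UT and 1.07 (0.79 to 1.36) in IMQ. Both genes had intervals above 0 in both libraries, as did Igfbp6, which encodes an IGF-binding protein, with 0.49 (0.35 to 0.63) and 0.84 (0.53 to 1.16). Cd248, which encodes endosialin of stromal cells, had 50 against 13 UMIs in UT and 21 against 7 in IMQ, log2 ratios of 1.86 (0.96 to 2.87) and 1.57 (0.28 to 3.05).

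Other list members had an interval above 0 in UT alone. Cd34, a sialomucin of progenitor cells, had 585 against 340 UMIs in UT, a log2 ratio of 0.70 (0.50 to 0.90), and 0.18 (-0.14 to 0.50) in IMQ. Cd55, a complement regulator on the cell surface, had 1.06 (0.45 to 1.70) in UT and 0.70 (-0.46 to 1.93) in IMQ. Tnxb, a matrix tenascin, had 0.87 (0.54 to 1.21) and 0.44 (-0.04 to 0.92). Ackr3, a scavenging chemokine receptor, had 26 against 5 UMIs in UT and 1 against 5 in IMQ. Fewer UMIs stood behind the IMQ values, and the difference between the libraries was not tested.

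**Figure D2:**
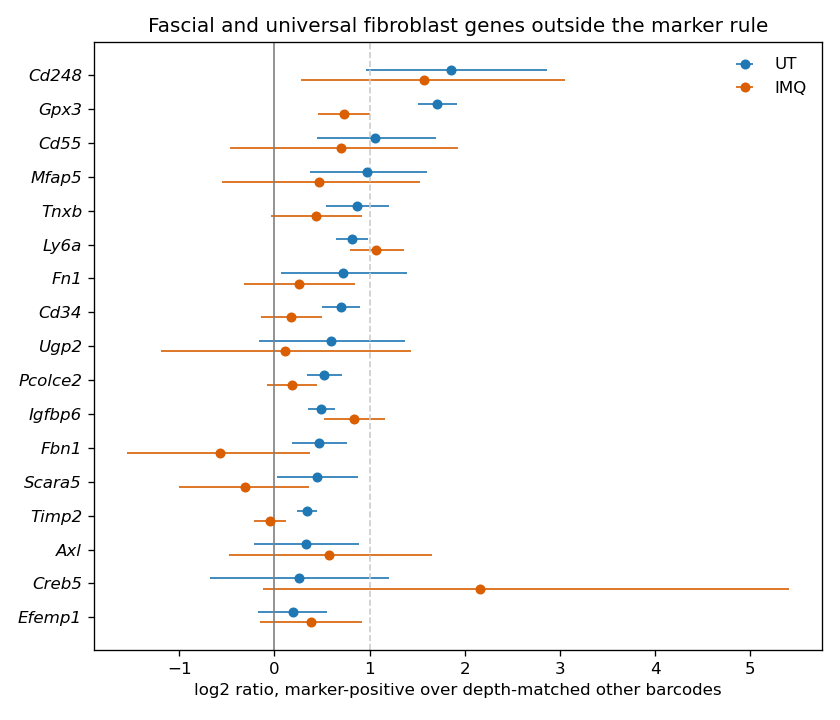
log2 ratio of CPM, marker-positive over depth-matched other barcodes (x axis), for the genes of the fascial list measured in both libraries (y axis), in UT (blue) and IMQ (orange). Lines are exact 95% intervals of counting error, the solid line marks 0 and the dashed line a 2-fold difference. Gpx3, Ly6a, Igfbp6 and Cd248 lie above 0 in both libraries.

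The level of the list was then followed over the marker sum itself, in all barcodes within the limits. In UT it was 7898 CPM at a sum of 0, 11152 at 1, 11363 at 2, 14278 at 3 or 4 and 19089 at 5 or more. The median depth rose along the same bins, from 599 to 1366 UMIs. Within barcodes of 600 to 1200 UMIs the UT level went from 10627 to 21726 CPM. The rise was not particular to this list. From a sum of 0 to 5 or more the UT level of the reticular and lower dermal genes went from 5333 to 15029 CPM, that of 7 general fibroblast markers from 60565 to 105530, that of the small leucine-rich proteoglycans from 21666 to 40079 and that of the complement genes from 1550 to 4593. The papillary genes went from 1203 to 1040 CPM. In IMQ the levels were 8623, 9113, 10313, 10797 and 9945 CPM. The last IMQ bin held 30 barcodes, of which 2 carried at least 10 UMIs of the nuclear RNA Malat1. With such barcodes left out in every bin, the IMQ levels went from 8620 at 0 to 14761 CPM at 5 or more, over 28 barcodes, and the UT levels from 9931 to 20762. The end of the IMQ series thus turned on 2 barcodes, and this alternative was chosen after seeing the data.

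**Figure D3:**
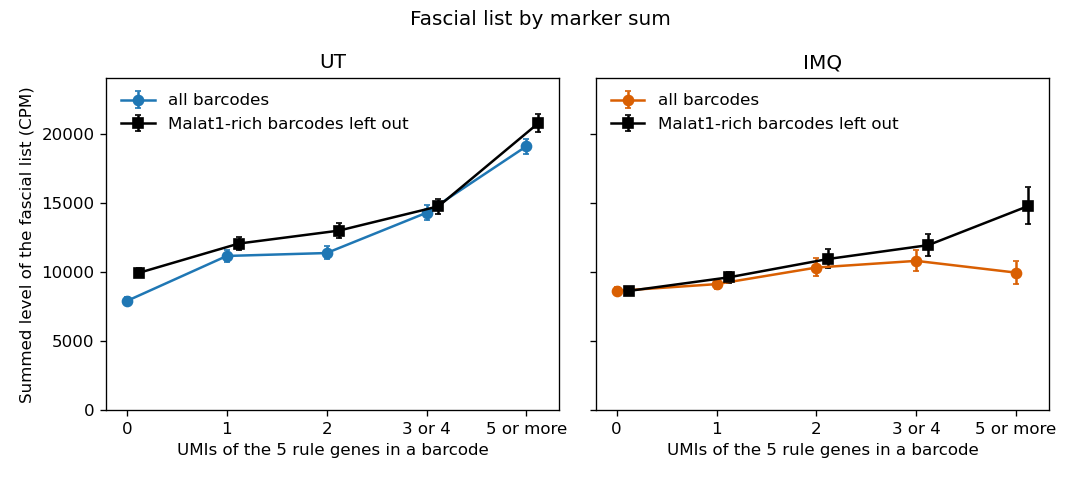
Summed level of the fascial list in CPM (y axis) by the number of UMIs of the 5 rule genes in a barcode (x axis), for UT (left) and IMQ (right), with all barcodes (coloured circles) and without Malat1-rich barcodes (black squares). Error bars are exact Poisson 95% intervals. At 5 or more marker UMIs the IMQ level is 9945 CPM with all barcodes and 14761 CPM without the Malat1-rich ones.

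Of the barcodes with a UMI of Pi16, 36 of 219 in UT and 10 of 56 in IMQ carried no other rule gene. The list differed in UT with the markers that a barcode carried. In UT the summed log2 ratio was 0.35 (0.27 to 0.44) for 178 paired barcodes with Ly6c1 alone and 0.98 (0.91 to 1.05) for 202 with a UMI of Pi16. In IMQ the values were 0.35 (0.23 to 0.48) for 123 barcodes with Ly6c1 alone and 0.45 (0.28 to 0.62) for 55 with Pi16. Barcodes with neither Pi16 nor Ly6c1 alone had 0.63 (0.52 to 0.74) in UT and 0.10 (-0.11 to 0.30) over 41 barcodes in IMQ, the lowest value there. The UT intervals of Ly6c1 alone and Pi16 did not overlap and the IMQ intervals did. In UT Gpx3 had 0.55 (0.24 to 0.87) in barcodes with Ly6c1 alone and 2.36 (2.07 to 2.67) in 175 barcodes that met the rule without Ly6c1, while in IMQ it had 0.72 (0.36 to 1.09) and 0.78 (0.21 to 1.37).

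Complement genes, which encode an extracellular cascade of innate defence, were higher in the marker-positive barcodes of UT. Of 9 genes 8 were measured, 5 (62.5%, against 8.06% of all genes) were more than 2-fold higher, 0 lower and 7 had intervals above 0, with a median log2 ratio of 1.21. In IMQ 1 of 8 (12.5%) was more than 2-fold higher, near the 11.6% of all genes, and the median of 0.15 was near that of all genes, 0.14. C4b, the complement component C4, had log2 ratios of 1.36 (0.82 to 1.93) in UT and 0.10 (-0.48 to 0.68) in IMQ, and Serping1, the C1 inhibitor, 0.54 (0.39 to 0.68) and -0.05 (-0.29 to 0.20). C3, the central component, was the exception, with 49 against 17 UMIs in UT and 53 against 20 in IMQ, log2 ratios of 1.44 (0.62 to 2.33) and 1.39 (0.63 to 2.21). Its intervals lay above 0 with Ly6c1 alone and without Ly6c1 in the rule, in both libraries. Their lower ends were 0.02 and 0.02 in UT and 0.07 and 0.68 in IMQ, so most lay barely above 0.

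Of the 15 genes with the highest ratio in both libraries at once, Lbp, the lipopolysaccharide-binding protein, on chromosome 2 at 158306493 to 158332852, had the highest UT ratio, with 80 UMIs in 51 marker-positive barcodes and 8 in 6 partners. The ratio on the log2 scale was 3.24 (2.19 to 4.50) in UT and 1.25 (0.34 to 2.23) in IMQ, where it had 36 and 15 UMIs. Among barcodes with Ly6c1 alone Lbp had 12 against 7 UMIs in UT and 15 against 13 in IMQ, with both intervals including 0, and among those that met the rule without Ly6c1 it had 85 against 3 in UT and 13 against 1 in IMQ. Dpep1 and Ogn had UT log2 ratios of 0.25 (-0.67 to 1.18) and 0.06 (-0.90 to 1.02) with Ly6c1 alone and 2.25 (1.52 to 3.04) and 1.79 (1.16 to 2.46) without Ly6c1 in the rule. Over all marker-positive barcodes Prss23, a serine protease, had log2 ratios of 2.79 (1.56 to 4.31) and 1.79 (0.91 to 2.77). Dpep1, a membrane dipeptidase, had 1.35 (0.82 to 1.91) and 1.12 (0.57 to 1.69), and Pltp, the phospholipid transfer protein, 1.86 (1.45 to 2.28) and 0.95 (0.37 to 1.55). Ogn, a small leucine-rich proteoglycan also called osteoglycin, had 1.56 (1.03 to 2.13) and 0.94 (0.30 to 1.60). Pltp and Ogn overlap Ctsa and Cenpp on the opposite strand, and whether strand was used in counting is not given in the sources used here. Penk, the enkephalin precursor, had 0.97 (0.55 to 1.40) and 0.96 (0.44 to 1.49), and Ifi205, an interferon-inducible gene, 1.05 (0.13 to 2.04) and 1.39 (0.56 to 2.29). With Ly6c1 alone the intervals of Prss23, Penk and Ifi205 included 0 in both libraries, and those of Pltp lay above 0. Ifi205 had 3 against 7 UMIs there in UT. Without Ly6c1 in the rule Prss23 had 53 against 2 UMIs in UT, Penk 111 against 37 and Ifi205 29 against 8.

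The remaining genes of these 15 were less even. Klf2, a Krüppel-like transcription factor, had 119 against 22 UMIs in UT, with 49 from a single barcode. In IMQ it had 11 against 3. Tnfaip6, a hyaluronan-binding protein, had 143 UMIs in IMQ, of which 135 lay in 1 barcode. Its IMQ log2 ratio was 4.82 with that barcode and 1.40 without the top barcode of each set. Cr1l, Copz1, Medag and Nfib had intervals above 0 in UT and intervals that included 0 in IMQ. With the rule applied after thinning, Copz1 turned to -0.16 in UT and to -0.0011 in IMQ, and in IMQ Cr1l turned to -1.59 and Klf2 to -0.59. Cr1l in IMQ also turned, to -0.015 and -0.028, with a marker sum of at least 3 and without Ly6c1 in the sum, where Klf2 was at -1.35.

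**Figure D4:**
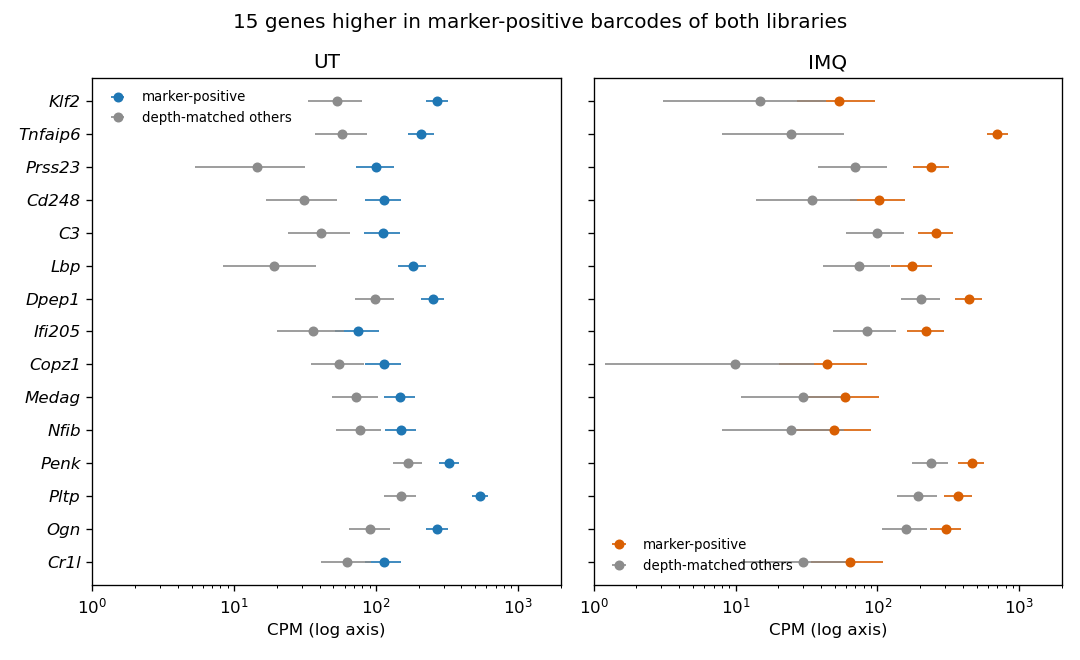
Level in CPM (x axis, log scale) of the 15 genes ranked highest in both libraries (y axis), in marker-positive barcodes (coloured) and depth-matched other barcodes (grey) of UT (left) and IMQ (right). Lines are exact Poisson 95% intervals. Lbp in UT had 80 UMIs against 8, and the IMQ level of Tnfaip6 rests on 1 barcode with 135 of 143 UMIs.

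Among the 15 genes lowest in both libraries, Rab34, a small GTPase, had 22 against 49 UMIs in UT and 8 against 19 in IMQ, log2 ratios of -1.24 (-2.03 to -0.49) and -1.26 (-2.66 to -0.00). Apod, a lipocalin, had 224 against 562 UMIs in UT, a log2 ratio of -1.41 (-1.64 to -1.18), which turned to 0.11 with the rule applied after thinning to 400 UMIs. In IMQ it had 108 against 221, with 153 of the 221 in 1 partner barcode, and the log2 ratio of -1.05 became 0.33 without the top barcode of each set. Crabp1, a retinoic acid-binding protein of papillary and hair-follicle fibroblasts, had 106 against 217 UMIs in UT, a log2 ratio of -1.12 (-1.47 to -0.78), and 13 against 26 in IMQ. Many of the others, among them Ppig, Top1, Pnn, Wwtr1 and Ier5, had intervals that included 0 in IMQ.

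Some genes stood out in 1 library. In UT the keratin genes Krt15 (3 against 298 UMIs) and Krt5 (2 against 43) were lowest, and for each of them 1 partner barcode held most of the UMIs, 294 and 41. In UT 1 partner barcode also held all 62 UMIs of Retnla. Klk1, a kallikrein protease, had 107 against 24 UMIs in UT, a log2 ratio of 2.07 (1.42 to 2.78), and 8 against 6 in IMQ. In IMQ the early response genes Fosb and Jun were lowest, with 4 against 39 and 5 against 37 UMIs. Set against all other IMQ barcodes without matching, and with the 3 deep unpaired barcodes included, both turned, to log2 ratios of 2.14 and 0.83.

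Markers of other cell types lay partly in single barcodes and were partly spread. In UT 1 marker-positive barcode held 1527 of the 1541 UMIs of the class II and myeloid list, and 1 held 59 of the 82 endothelial UMIs. In IMQ 1 held 91 of the 102 endothelial UMIs. The 67 keratinocyte UMIs of the UT marker-positive barcodes were spread, with at most 4 in any 1 barcode. Of these barcodes 13 (2.61%) had 2 or more, against 0.873% of the other UT barcodes, which were shallower and not matched in depth. By level the list had 104 CPM in the marker-positive and 4524 CPM in the other UT barcodes. Without the top barcode of each set these were 97.7 and 2585 CPM. The 62 UMIs of the skeletal muscle list in the UT marker-positive barcodes were all of Des, the intermediate filament desmin. At most 6 lay in 1 barcode, and 14 barcodes (2.81%) had 2 or more against 1.75%. The list stood at 96.2 CPM, against 118 CPM in the other UT barcodes. Acta1, Tnnt3, Myl1 and Ckm were at 0 in the marker-positive ones. The adipocyte markers Adipoq, Plin1, Cidec, Car3 and Cfd were at 0 in the marker-positive barcodes of both libraries. With all barcodes left out that carried at least 2 UMIs of any such list, the fascial sum kept its log2 ratio within its interval in both libraries.

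Marker-positive barcodes of IMQ were last compared with those of UT. They were not matched in depth, with medians of 781 UMIs in IMQ and 1043 in UT. Nor were they alike in make-up, as Ly6c1 alone brought in 56.1% in IMQ and 35.9% in UT. The part of depth and make-up in the values below was not tested. Of 6302 genes 455 (7.22%) were more than 2-fold higher in IMQ and 1665 (26.4%) more than 2-fold lower. The median gene had a log2 ratio of -0.47, and among the depth-matched other barcodes it was -0.74. Relative to the median gene 914 genes (14.5%) were higher and 928 (14.7%) lower, and with TMM scaling 902 were higher and 949 lower. Taking off the median evens these counts by construction, and the TMM shift of 0.45 was close to it in size. The cause of the excess of lower genes was not tested. The higher calls rested on single barcodes more often, as 208 of 455 stayed past 2-fold without the top barcode, against 1377 of 1665 lower calls.

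Cthrc1, a secreted collagen triple helix repeat protein encoded on chromosome 15 at 39076932 to 39087121, was counted 2 times in the UT and 56 times in the IMQ marker-positive barcodes, with at most 4 in any 1 barcode, a log2 ratio of 6.28 (4.36 to 9.36). It was also higher in the other IMQ barcodes, with 3 against 44 UMIs and a log2 ratio of 4.92. Dbp, a clock-controlled transcription factor, had 5 and 24 UMIs, and Galnt15, a glycosyltransferase, 10 and 35. Their log2 ratios were 3.74 (2.32 to 5.49) and 3.28 (2.24 to 4.46), and in the other barcodes 3.92 (2.18 to 6.30) and 5.29 (2.64 to 10.7), the latter from 1 UMI in UT and 19 in IMQ. Scarb1 and Pecam1 were higher through 1 IMQ barcode each, with 40 of 42 and 24 of 24 UMIs.

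Ccl11, the eotaxin chemokine, gave 153 UMIs in UT but 2 in IMQ marker-positive barcodes, which is -4.78 on the log2 scale (-7.84 to -2.90). It was lower in the other barcodes too, with 69 and 8 UMIs and a log2 ratio of -2.07. Klk1b21, a kallikrein of a gene family with near-identical copies, had 132 and 1 UMIs. Spon2, a matrix spondin, had 80 and 1, and Srm, the spermidine synthase, 69 and 1. In the partners of barcodes with Ly6c1 alone, 178 in UT and 123 in IMQ, these genes were lower in IMQ too. Klk1b21 had 38 and 0 UMIs there, Spon2 17 and 0 and Srm 18 and 0. The class II genes Cd74, H2-Eb1, H2-Ab1 and H2-Aa were lower through 1 UT barcode, which held 710 of 715 Cd74 UMIs, and Hspa1b had 133 of its 174 UT UMIs in 1 barcode.

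Of the 20 fascial genes measured in this comparison 0 were more than 2-fold higher in IMQ and 5 (25%) more than 2-fold lower, near the 26.4% of all genes, and their median log2 value was -0.67, which is -0.20 once the shift of the median gene is taken off. Fbn1, the microfibril protein fibrillin, was at 401 UMIs in UT marker-positive barcodes and at 17 in those of IMQ. This is -3.08 on the log2 scale. Ackr3 had 40 and 1 UMIs. In the partners of barcodes with Ly6c1 alone Fbn1 had 412 CPM in UT and 96.5 CPM in IMQ. Ackr3 had 2 and 3 UMIs there. Gpx3 had 1153 and 307 UMIs, a log2 ratio of -0.43, close to that of the median gene. Of 9 reticular and lower dermal genes 8 were measured, 4 were more than 2-fold higher, where 7.22% of all genes were, and 1 was lower, where 26.4% were. Their median log2 value was 0.60, or 1.07 above the median gene. The summed level of the list was lower in IMQ, though, at 7092 CPM against 10657 CPM in UT, over the paired marker-positive barcodes.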

How the data were processed

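Dermal CD45-tdTomato+ cells of 1 UT and 1 IMQ library were measured by 10x 3′ single-cell RNA sequencing. The authors deposited raw UMI counts per gene and barcode, written by Cell Ranger 3.0.0 for UT and 3.1.0 for IMQ per the file headers, and the submitters' processing notes name the build mm10; the annotation is not given in the sources used here. Of 31053 gene IDs, 30934 were found in GENCODE M21 of GRCm38, from which coordinates are taken. Marker-positive barcodes were paired 1:1 with other barcodes of nearest depth, counted without the 5 rule genes, with no barcode used more than once. Sums were scaled to CPM without those genes. A sum of 0 was set to 3 UMIs in calls, medians and rankings, so such a ratio is a bound. Intervals are exact Poisson, binomial and conditional binomial intervals at 95% (scipy 1.17.1). Doublets were kept, and removal by Scrublet (scanpy 1.11.5), TMM (edgeR 4.0.16) and median-of-ratios (DESeq2 1.42.0) scaling were alternatives. Named genes had at least 100 CPM in 1 set and were the 15 highest and 15 lowest by the weaker of both libraries' ratios, the 5 highest and 5 lowest of each library, the 10 highest and 10 lowest of IMQ over UT, and the most abundant genes of each list. The barcodes, gene lists and rules were chosen with earlier results of these data known. On simulated data the true ratio lay inside the interval for 96.8% of genes. Those data were drawn from 1 profile per set, without variation between barcodes. They therefore cover counting error only, not UMIs gathered in single barcodes as seen here.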

Additional observations from a re-analysis of the deposited data

Results flagged for a closer look

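Igfbp2, which encodes an IGF-binding protein, Slc38a2, an amino acid transporter, the nuclear RNA Neat1 and the chemokine Ccl8 had ratios of opposite direction in the 2 libraries, past 2-fold and with intervals off 0 in each. The difference between the libraries was not tested. Igfbp2 had a log2 ratio of marker-positive over other barcodes of -1.44 in UT and 1.75 in IMQ, where 26 of its 34 UMIs lay in 1 barcode. Slc38a2 had -1.08 in UT and 1.46 in IMQ, and Neat1 had -1.12 in UT and 1.16 in IMQ. Ccl8 had 21 against 2 UMIs in UT, a log2 ratio of 3.31, and 5 against 19 in IMQ, a log2 ratio of -1.94. Without the top barcode of each set the IMQ intervals of these 4 genes included 0, and in UT those of Igfbp2, Slc38a2 and Neat1 stayed below 0.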

How the results depend on the processing

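No paired analysis was possible because each group was 1 library. The fascial sum kept its direction in UT and in IMQ under all 20 alternatives run on it. Of 200 values for the shares, the calls and that sum, 134 stayed within their interval or within 1.5 times the count. Of 1944 values for the ratios of named genes, 1869 kept their sign and 53 ratios past 2-fold turned. For the shares, the calls and the fascial sum the values that moved follow, and for named genes and other lists those that turned. Not listed are 208 values of named genes, 319 list medians and 298 list sums that moved in other ways. The cause was not tested. With at most 5% mitochondrial UMIs the marker-positive share was 41.5% in UT. Turned log2 ratios were the summed keratinocyte markers in UT to 0.15, Sbsn in UT to 0.72, Krt5 in UT to 0.91, the median adipogenic genes in IMQ to 0.24, Apod in IMQ to 0.67 and Scarb1 in IMQ over UT to -0.50. With at least 500 genes the marker-positive share was 66.7% in UT and 63.6% in IMQ, the log2 ratio of the fascial sum came to 0.76 in UT and 0.55 in IMQ and the calls were 108 higher in IMQ, 124 lower in IMQ, 742 higher in IMQ over UT and 1087 lower in IMQ over UT. Ratios that turned were Apod in IMQ to 0.80. With a marker sum of at least 3 the marker-positive share was 24.1% in UT and 10.3% in IMQ, the log2 ratio of the fascial sum came to 0.84 in UT and the calls were 114 lower in IMQ. Log2 ratios turned for Cr1l in IMQ to -0.015 and Top1 in IMQ to 2.79. Without Pi16 in the marker sum the marker-positive share was 31.2% in UT and 18.6% in IMQ. Without Dpp4 in the marker sum the log2 ratio of the fascial sum came to 0.73 in UT. Log2 ratios turned for Ppig in IMQ to 0.73 and Rasd1 in IMQ to -2.01. Without Ly6c1 in the marker sum the marker-positive share was 15% in UT and 4.22% in IMQ, the log2 ratio of the fascial sum came to 0.70 in UT and the calls were 135 higher in IMQ, 100 lower in IMQ and 1061 lower in IMQ over UT. Turned log2 ratios were the summed endothelial markers in UT to -1.09, Sbsn in UT to 0.99, Coch in UT to 0.16, Krt5 in UT to 0.40, Cr1l in IMQ to -0.028, Klf2 in IMQ to -1.35 and Apod in IMQ to 1.06. With the rule applied after thinning to 400 UMIs the marker-positive share was 18.2% in UT and 10.7% in IMQ, the log2 ratio of the fascial sum came to 0.56 in UT and 0.14 in IMQ and the calls were 358 lower in UT, 138 higher in IMQ, 92 lower in IMQ, 261 higher in IMQ over UT and 1052 lower in IMQ over UT. Ratios that turned were Sbsn in UT to 1.22, Coch in UT to 0.073, Copz1 in UT to -0.16, Apod in UT to 0.11, Klf9 in UT to 0.057, Cr1l in IMQ to -1.59, Klf2 in IMQ to -0.59, Rasd1 in IMQ to -1.59, Copz1 in IMQ to -0.0011, Angptl4 in IMQ over UT to -0.76 and H2-Eb1 in IMQ over UT to 1.24. Without barcodes carrying other cell types' markers log2 ratios turned for the summed endothelial markers in UT to -0.67, Sbsn in UT to 1.14, the summed class II and myeloid markers in IMQ to 2.31, Scarb1 in IMQ over UT to -0.95, H2-Eb1 in IMQ over UT to 0.37 and Cd74 in IMQ over UT to 0.37. Against all other barcodes without matching the log2 ratio of the fascial sum came to 0.74 in UT and 0.23 in IMQ and the calls were 874 higher in IMQ and 326 lower in IMQ. Ratios that turned were Coch in UT to 0.28, Ppig in IMQ to 0.41, Top1 in IMQ to 0.44, Jun in IMQ to 0.83, Fosb in IMQ to 2.14, Arl4a in IMQ to 0.0084, Ifrd1 in IMQ to 0.085, Nfkbia in IMQ to 0.94 and Pnn in IMQ to 0.63. Against all other barcodes reweighted by depth the log2 ratio of the fascial sum came to 0.87 in UT and the calls were 1218 lower in UT and 527 higher in IMQ. Log2 ratios turned for Top1 in IMQ to 0.064 and Fosb in IMQ to 0.36. With TMM scaling the log2 ratio of the fascial sum came to 0.20 in IMQ and the calls were 902 higher in IMQ over UT and 949 lower in IMQ over UT. With median-of-ratios scaling the log2 ratio of the fascial sum came to 0.21 in IMQ and the calls were 908 higher in IMQ over UT and 945 lower in IMQ over UT. With a total free of ribosomal protein, mitochondrial, AY036118 and Gm42418 UMIs the log2 ratio of the fascial sum came to 0.58 in UT and the calls were 707 higher in IMQ over UT. With no UMI minimum the calls were 1804 higher in UT, 2210 lower in UT, 1899 higher in IMQ, 2150 lower in IMQ and 3533 higher in IMQ over UT. With a minimum of 30 UMIs the calls were 104 higher in UT, 86 lower in UT, 40 higher in IMQ, 18 lower in IMQ, 110 higher in IMQ over UT and 821 lower in IMQ over UT. Without the barcode richest in the gene in each set log2 ratios turned for Sbsn in UT to 0.92, Apod in IMQ to 0.33, H2-Eb1 in IMQ over UT to 0.25 and Cd74 in IMQ over UT to 0.74. Without Malat1-rich barcodes the log2 ratio of the fascial sum came to 0.51 in UT and the calls were 331 lower in UT and 252 higher in IMQ over UT. Turned log2 ratios were the summed keratinocyte markers in UT to 0.50, Sbsn in UT to 1.13, Klf9 in UT to 0.25, Rasd1 in IMQ to -2.01 and Neat1 in IMQ over UT to -0.43. Within barcodes of 600 to 1200 UMIs the log2 ratio of the fascial sum came to 0.42 in UT and the calls were 273 lower in UT, 194 higher in IMQ, 118 lower in IMQ, 121 higher in IMQ over UT and 1048 lower in IMQ over UT. Ratios that turned were the summed nuclear long noncoding RNAs in UT to 0.53, the summed keratinocyte markers in UT to 0.20, the summed endothelial markers in UT to -0.058, Sbsn in UT to 0.68, Klf9 in UT to 0.13, Rasd1 in IMQ to -0.42 and Neat1 in IMQ over UT to -0.71. The alternatives without Malat1-rich barcodes and within 600 to 1200 UMIs were chosen after seeing the data. Barcodes held few UMIs, so genes with fewer than 10 UMIs in both sets were not measured.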
